A study of Mus musculus with 6 samples.

Results

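The Ly6 antigens described here are 7 mouse genes, Ly6a, Ly6c1, Ly6c2, Ly6d, Ly6e, Ly6h and Ly6i, followed in microglia sorted from mice that carried a knock-in at Bhlhe41. Every array probe whose transcript accession maps to 1 of these symbols was taken, which gave 9 probes of the 56605 on the array, or 7 genes of the 23462 that could be named and tested. The family was selected on the log2 differences between the genotypes in these same arrays, in which some of its genes had been seen to stand out. The members' differences are therefore given as a description, with no p. Where a member is said to be called, this is its place in a fit across all probes, given as a count beside the share of all genes, and it carries no weight as evidence on the family.

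The 6 samples were total RNA from microglia of C57BL/6 mice aged 3 months, hybridised singly to 1-colour expression arrays. The 3 control samples, labelled Bhlhe41 dTomato-Cre/+ and called B41HET by the study, came from mice with 1 knock-in allele. The 3 samples labelled Bhlhe41 dTomato-Cre/dTomato-Cre and called B41KO came from mice with the knock-in on both alleles. The cassette places dTomato, Cre and a polyadenylation signal ahead of the Bhlhe41 start codon, so the Bhlhe41 promoter drives the reporter and the recombinase in both genotypes, and no sample without Cre was compared. Cells were enriched by 40% Percoll and sorted as live CD45lo Cx3cr1+ CD11b+ cells. Per the Methods each sample pooled 10 to 15 mice, whereas the labels give only 3 per genotype, so spread was taken between pools rather than between mice.

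Ly6 proteins are small cell-surface molecules built on a cysteine-rich three-finger fold, and most are held in the membrane by a glycosylphosphatidylinositol (GPI) anchor. Most of the members lie in 1 cluster of related genes, and several are induced by interferons. They are best known as surface markers: Ly6A (Sca-1) of haematopoietic stem cells and brain endothelium, Ly6C of monocytes, endothelium and some lymphocytes, the related Ly6G of neutrophils, and Ly6D of B lineage progenitors. Microglia at rest are usually described as low for Ly6C.

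Ly6c1, Ly6c2 and Ly6g, the last of which is not a member, are closely related neighbours, and their promoter sequences are shown because all 3 had the most negative differences among the measured genes of the cluster. Of the 7 members, 2 (Ly6c1 and Ly6c2) had promoter sequence in the RefSeq table used, build GRCm38.p6. Each window below runs 5′ to 3′ on the strand of its gene, from 250 bases before an annotated start to 50 after it. Capitals mark GAGGAAGT, a purine-rich core of the kind bound by ETS factors such as PU.1, whose letters were added to the search after the sequences had been seen.
Ly6c1 (chr15:75048614-75048913, minus strand): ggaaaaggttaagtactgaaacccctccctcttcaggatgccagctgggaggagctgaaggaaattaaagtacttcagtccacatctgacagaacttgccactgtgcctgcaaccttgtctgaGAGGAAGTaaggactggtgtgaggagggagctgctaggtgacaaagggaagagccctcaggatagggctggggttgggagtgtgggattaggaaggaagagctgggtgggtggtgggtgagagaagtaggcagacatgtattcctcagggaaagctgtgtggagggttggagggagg
Ly6c2 (chr15:75111922-75112221, minus strand): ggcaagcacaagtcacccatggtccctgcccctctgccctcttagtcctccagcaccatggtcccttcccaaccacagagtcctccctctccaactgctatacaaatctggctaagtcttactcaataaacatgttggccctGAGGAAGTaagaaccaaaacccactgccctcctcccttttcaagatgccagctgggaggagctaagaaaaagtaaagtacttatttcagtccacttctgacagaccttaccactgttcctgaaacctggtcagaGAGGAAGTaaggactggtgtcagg
Ly6g (chr15:75155079-75155378, plus strand): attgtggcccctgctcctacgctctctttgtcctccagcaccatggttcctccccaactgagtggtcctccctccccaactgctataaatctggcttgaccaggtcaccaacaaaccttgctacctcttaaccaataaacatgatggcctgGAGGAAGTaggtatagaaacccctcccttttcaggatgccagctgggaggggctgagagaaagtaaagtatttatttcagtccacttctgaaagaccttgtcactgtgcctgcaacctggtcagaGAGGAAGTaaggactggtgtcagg
The longest run of bases common to these 3 windows was 22 bases long and holds GAGGAAGT. That copy begins at base -127 from the annotated start for Ly6c1, and at base 27, after the start, for Ly6c2 and Ly6g. The Ly6c1 window shown was 63.3% and 59.9% identical to those of Ly6c2 and Ly6g over aligned bases. The other Ly6c1 window, given below, was 78.2% and 87.4% identical to them. The letters occurred 1 time in the Ly6c1 window and 2 times each in the Ly6c2 and Ly6g windows, with both strands searched. They occurred in 3.2% of the 32851 promoters in the table, and also 2 times in the window of Ly6f, a gene of the same cluster that was not called (log2 difference -0.37), whereas the window of Ly6a2, which was not measured, held none. Each of the 3 genes has a second, overlapping window in the table, which held 0 matches for Ly6c1 (chr15:75048788-75049087), 2 for Ly6c2 (chr15:75111888-75112187) and 1 for Ly6g (chr15:75155011-75155310).

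No Ly6c1, Ly6c2 or Ly6g window held CACGTG, the E-box letters that BHLHE41 is known to bind, which 7.15% of all promoters held. A pair of GAAA copies with 2 bases between them, a form of the interferon-stimulated response element, and TTCNNNGAA, a form of the interferon gamma-activated site, were also missing from these windows and occurred in 3.44% and 8.3% of all promoters. These matches describe letters in a 300-base window and say nothing of binding.

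Between 70.1% and 75.5% of probes stood well above background on each array, no spot was saturated, and all 6 arrays came from 1 slide in 1 scan. The slide had 2 rows of arrays, with the 3 B41HET samples and B41KO sample 1 in row 1 and B41KO samples 2 and 3 in row 2. A probe was called at a Benjamini-Hochberg adjusted p of 0.05 or less from limma over all probes, together with a log2 difference of at least 0.5 in size. The brightest probe stands for a gene. The targeted gene did not separate the genotypes downwards. Its probe A_55_P2133001 read 7.86, 7.58 and 7.40 on the log2 scale in B41HET and 7.96, 7.90 and 7.96 in the samples labelled B41KO (difference 0.33, SE 0.13, limma adjusted p = 0.203). Its probe A_55_P2503365 differed by 0.38 (SE 0.20, limma adjusted p = 0.33). Where these probes lie relative to the cassette is not given in the sources used here, so they do not check the labels, and the second group is called the samples labelled B41KO.

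Of the 7 members, 4 were called lower in the samples labelled B41KO (Ly6c1, Ly6c2, Ly6e and Ly6a), 0 were called higher, and 3 were not called (Ly6d, Ly6h and Ly6i). Over all 23462 named genes, 5.45% were called, 4.01% lower and 1.44% higher. By probe, 5 of the 9 were called, all lower, beside 5.07% of all probes tested, 3.34% lower and 1.72% higher. Since the members were chosen with these values in view, nothing is read from the difference between the shares. The median log2 difference was -0.56 over the 7 members and 0.007 over all named genes. The brightest probe of every member stood well above background on all 6 arrays. In bulk RNA, fewer cells of a type and less RNA per cell cannot be told apart.

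**Figure D1:**
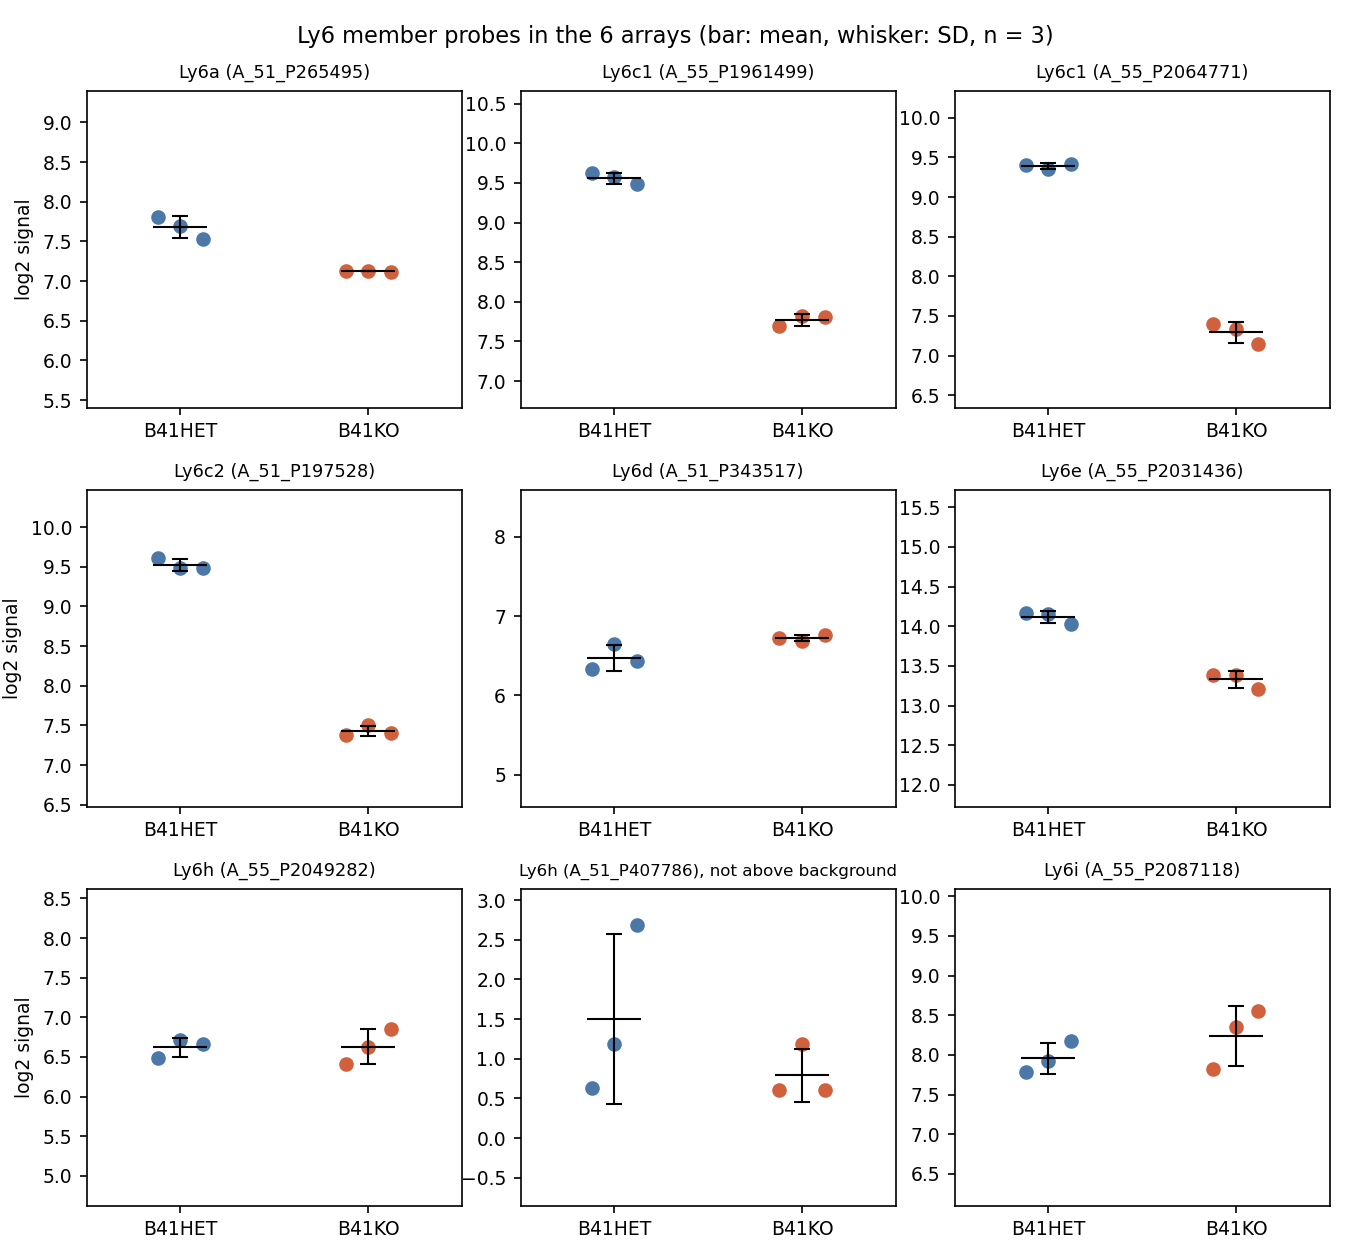
Each panel shows 1 member probe, with the log2 signal after quantile normalization on the vertical axis, a point for each of the 3 samples labelled B41HET and the 3 labelled B41KO, a bar at the mean and a whisker of 1 SD, and all panels span the same log2 range. The Ly6c1 and Ly6c2 probes separate widely, Ly6a and Ly6e separate by less, and Ly6h and Ly6i overlap.

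Ly6c2 encodes one of the Ly6C antigens carried by inflammatory monocytes. Its probe A_51_P197528 read 9.61, 9.48 and 9.48 in B41HET and 7.38, 7.5 and 7.40 in the samples labelled B41KO, as log2 signal. Every sample labelled B41KO lay below every B41HET sample, with 1.98 log2 units between the nearest values of the groups. The means were 9.52 ± 0.07 and 7.43 ± 0.07 (SD, n = 3), a log2 difference of -2.10 with SE 0.08, so that the signal was 23.4% of that in B41HET. By log2 difference Ly6c2 ranked 54 from the lowest of the 23462 named genes.

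Ly6c1 encodes the other Ly6C antigen, which is widely used to mark brain endothelium as well as monocytes. Its brightest probe, A_55_P1961499, read 9.62, 9.57 and 9.48 in B41HET and 7.69, 7.82 and 7.81 in the samples labelled B41KO. Its second probe, A_55_P2064771, read 9.41, 9.35 and 9.42 against 7.40, 7.34 and 7.14. On both probes all samples labelled B41KO were low and all B41HET samples high, with no overlap. The log2 difference was -1.79 (SE 0.08) on the brightest probe and -2.10 (SE 0.09) on the second, or 29% and 23.3% of the B41HET signal. The sequences of the array probes were not used here, so how much of each signal comes from Ly6c1, from Ly6c2 or from related neighbours is uncertain. The 3 probes are therefore not taken as independent evidence on 2 genes.

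Ly6e encodes a broadly expressed, interferon-inducible antigen known as a receptor for the fusogenic syncytin-A and as an inhibitor of coronavirus entry. Its probe A_55_P2031436 read 14.17, 14.16 and 14.03 in B41HET and 13.39, 13.39 and 13.21 in the samples labelled B41KO. The groups did not overlap, and 0.64 log2 units lay between their nearest values. The means were 14.12 ± 0.08 and 13.33 ± 0.10 (SD, n = 3), a log2 difference of -0.79 with SE 0.09, leaving 57.9% of the B41HET signal.

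Ly6a encodes Sca-1. Its probe A_51_P265495 read 7.81, 7.70 and 7.53 in B41HET and 7.13, 7.13 and 7.12 in the samples labelled B41KO. The 3 samples labelled B41KO were nearly equal and all lay below the lowest B41HET sample, by 0.40 log2 units at the nearest. The log2 difference was -0.56 with SE 0.09, or 68% of the B41HET signal, and is the smallest among the called members.

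Ly6d encodes an antigen of committed B lineage progenitors and of stratified epithelium. Its probe A_51_P343517 read 6.33, 6.65 and 6.44 in B41HET and 6.72, 6.68 and 6.76 in the samples labelled B41KO. The samples labelled B41KO were all the higher ones, but only 0.03 log2 units separated the groups, and the difference of 0.25 (SE 0.10) was not called. Groups without overlap, with the samples labelled B41KO higher, were found for 14.2% of named genes, and with them lower for 18%. Among the members Ly6d was of the first kind and the 4 called genes were of the second.

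Ly6i is a close relative of Ly6a, known from macrophages and other myeloid cells. Its probe A_55_P2087118 read 7.78, 7.92 and 8.17 in B41HET and 7.82, 8.35 and 8.55 in the samples labelled B41KO. The lowest sample labelled B41KO sat among the B41HET samples and the other two above them, with a difference of 0.28 (SE 0.21). The lowest was B41KO sample 1, the sample in the slide row of the B41HET samples, and within that row the difference was -0.14.

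Ly6h is expressed by neurons, where it is known to bind nicotinic acetylcholine receptors. Its probe A_55_P2049282 read 6.49, 6.71 and 6.66 in B41HET and 6.41, 6.63 and 6.85 in the samples labelled B41KO, and the groups overlapped fully (difference 0.01, SE 0.14). None of the 6 arrays had its other probe, A_51_P407786, well above background, so no fold is given for it.

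Within slide row 1, where B41KO sample 1 stood beside the 3 B41HET samples, the log2 differences of the called members were near those over all 6 samples. They were -2.14 for Ly6c2, -1.87 and -2.0 for the Ly6c1 probes, -0.73 for Ly6e and -0.56 for Ly6a. With slide row as a block, 2 of the 7 members were called, Ly6c1 and Ly6c2, in a fit that sets B41KO sample 1 alone against B41HET and takes the spread from the other samples. Without B41HET sample 1, and also without B41HET sample 2, 2 members were called in place of 4, because Ly6a and Ly6e no longer passed. Their differences were -0.49 and -0.76 without B41HET sample 1, and -0.55 and -0.77 without B41HET sample 2. Over all features these fits called 1055 of 56592 and 792 of 56591 probes, in place of 2867 of 56601. Without B41HET sample 3 all 4 were called, and without any 1 sample labelled B41KO 3 were, with Ly6a the one that did not pass. Over all features 1321 probes were called without B41HET sample 3, and 1204 to 1525 without 1 sample labelled B41KO.

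**Figure D2:**
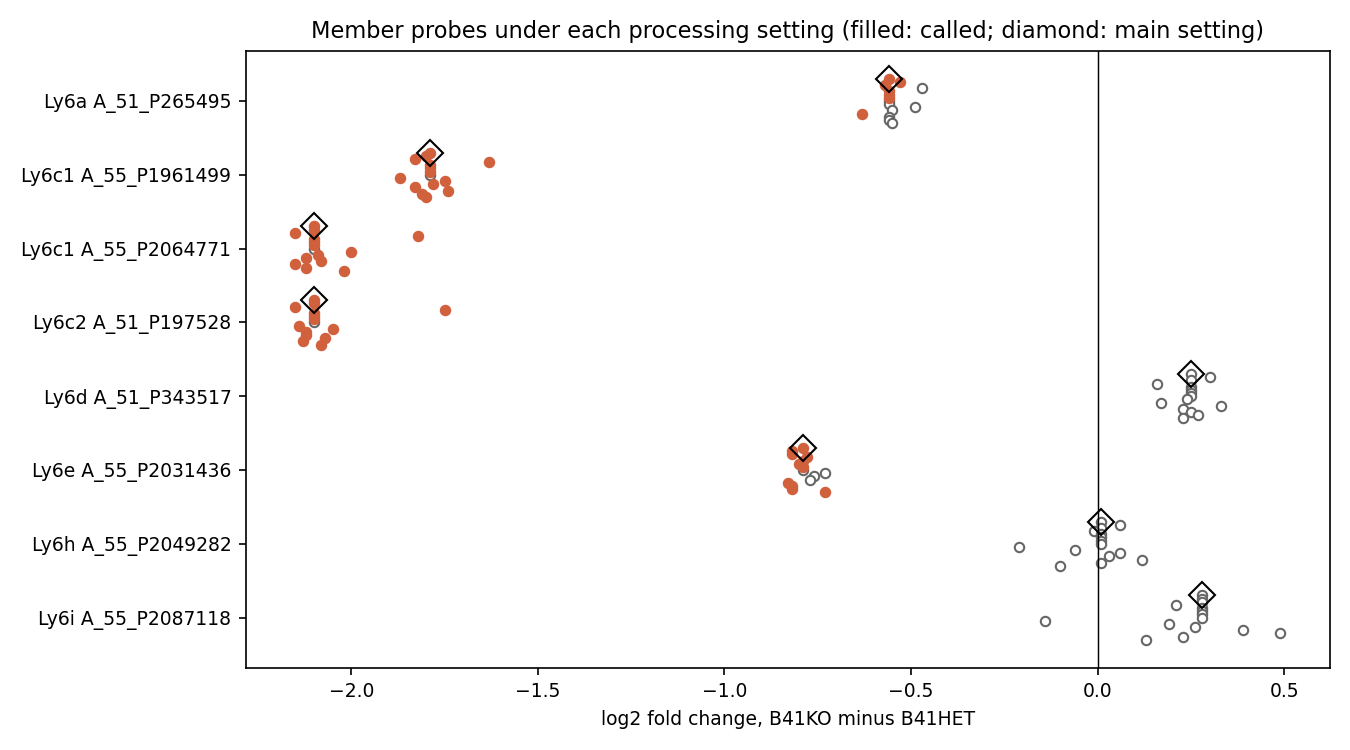
Each row is 1 member probe that stood above background, the horizontal axis is the log2 difference between samples labelled B41KO and B41HET, and each point is 1 way of processing the arrays or leaving out a sample, filled where the probe was called, with a diamond at the values given above. The Ly6c1 and Ly6c2 probes stay between -2.15 and -1.63, Ly6e and Ly6a stay below 0, and Ly6h and Ly6i lie on both sides of 0.

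The members were compared by the shape of their signal over the 6 arrays, measured as the root mean square difference between 2 genes after each was centred on its own mean. Ly6c1 and Ly6c2 differed by 0.16 log2 units, Ly6a and Ly6e by 0.14, and Ly6d and Ly6h by 0.17. Ly6c2 and Ly6i were the least alike, at 1.22. Shared probe sequence may bear on the first pair and was not tested.

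By the same measure, the genes most like each called member were sought among 17206 named genes above background on all arrays. Nearest to Ly6c2 were Cd177, a GPI-anchored neutrophil antigen of the wider Ly6 superfamily not held in the family list, at 0.032 log2 units, then Cybb, a subunit of the phagocyte NADPH oxidase, at 0.071 and the heat shock gene Hspa1a at 0.081. Nearest to Ly6c1 were Lcn2, a neutrophil granule protein, at 0.05, Prtn3, a protease of azurophil granules, at 0.084, and Gpx3, a secreted glutathione peroxidase, at 0.091. Among those nearest to Ly6e were Nckap5l at 0.028 and the histone gene H2bc15 at 0.032. Nearest to Ly6a were the kinase gene Fyn at 0.025, the mitochondrial carrier gene Ucp2 at 0.032 and the RNA-binding protein gene Hnrnpab at 0.032. With 6 arrays in 2 groups, likeness rests mostly on the size of the genotype difference.

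The members lie on chromosome 15 among related genes, and in the order of the annotation the called ones were partly side by side. From Ly6d to Ly6h there were 22 protein-coding genes, of which 16 were measured. Of these, 5 were called lower and 0 higher, beside 4.01% and 1.44% of all named genes. All of the called genes but Ly6g are members, chosen with these values in view, so nothing is read from the count. Ly6e, Ly6i, Ly6a, Ly6c1, Ly6c2 and, after 1 unmeasured gene, Ly6g follow each other in that order. Ly6i, with its difference of 0.28, stands between Ly6e and Ly6a, both called lower. Of the 9 measured genes in this stretch that are not members, Ly6g alone was called.

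**Figure D3:**
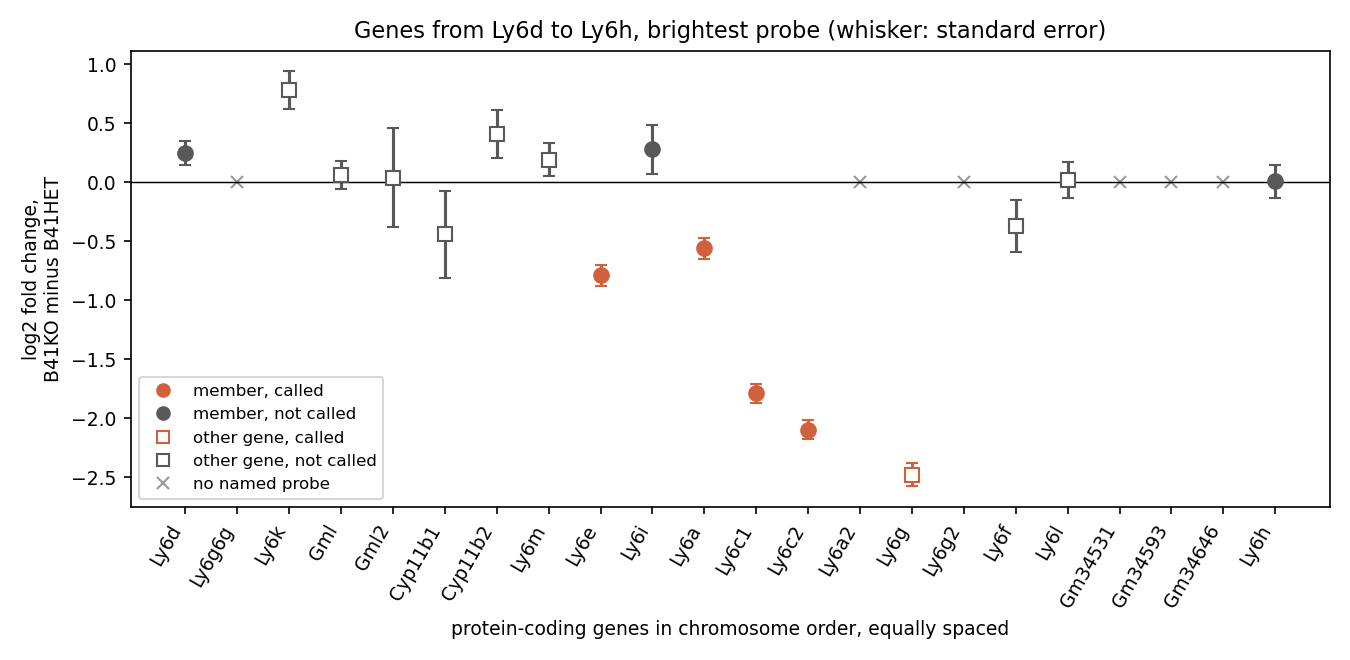
Protein-coding genes from Ly6d to Ly6h are placed in chromosome order at equal spacing, with the log2 difference between samples labelled B41KO and B41HET on the vertical axis, a whisker of 1 standard error, circles for members, squares for other genes, orange for called genes and crosses at 0 for genes without a named probe. Ly6e, Ly6a, Ly6c1, Ly6c2 and Ly6g are the called genes, and Ly6i among them is not.

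Beyond the members, 38 further mouse genes of the Ly6 and urokinase receptor fold were listed, and 35 of them were measured. Ly6g was called lower, Plaur was called higher and 33 were not called. Over all named genes 4.01% were called lower and 1.44% higher, the shares to set beside this count and that of each later list. The family's median log2 difference was 0.08, and ran from 0.03 to 0.17 over other ways of processing and fits without 1 sample. Ly6g, the antigen by which neutrophils are usually gated, read 9.43, 9.27 and 9.21 in B41HET and 6.81, 6.96 and 6.71 in the samples labelled B41KO, a difference of -2.48 (SE 0.10, limma adjusted p = 0.00101). All samples labelled B41KO were far below all B41HET samples. Whether the Ly6g probe shares signal with those of Ly6c1 and Ly6c2 was not tested. Plaur, the urokinase receptor, which focuses plasminogen activation at the cell surface, read 8.24, 8.20 and 8.08 against 9.99, 10.02 and 10, a difference of 1.83 (SE 0.07, limma adjusted p = 0.000895). The 3 samples labelled B41KO were nearly equal and all above the B41HET samples.

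Some uncalled relatives lay near the thresholds. Ly6k, the second neighbour of Ly6d in the gene order, differed by 0.78 (limma adjusted p = 0.0514), with every sample labelled B41KO above every B41HET sample, and it was called in 6 of 12 other ways of processing and in 1 of the 6 fits without 1 sample, that without B41HET sample 1. Tex101 and Lypd2, at 0.50 and 0.48, passed the adjusted p (0.0263 and 0.0247, limma) but not the size of difference. Ly6g6e was called lower on a dimmer probe (-0.93) and not on its brightest (-0.47). Without B41KO sample 3, Lypd1 was called higher although its signal was not well above background. Ly6g and Plaur were both called without any 1 sample.

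Genes that build and attach the GPI anchor were also followed, since most Ly6 antigens carry it. Of 28 measured, 1 was called lower, Pigf, which helps to add the ethanolamine phosphate that joins anchor to protein. Pigf read 8.87, 8.74 and 8.61 in B41HET against 8.23, 8.12 and 8.12, a log2 difference of -0.58 (SE 0.09, limma adjusted p = 0.026). Its call was lost without B41HET sample 2 and without any 1 of the samples labelled B41KO. The list's median was 0.02, near the 0.007 of all named genes.

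Several Ly6 genes are interferon-inducible, so 28 measured genes of the interferon response stand beside them. Ifitm3, a restriction factor of endosomal virus entry, was called lower, at 6.11, 6.0 and 5.85 in B41HET against 5.22, 5.01 and 4.79 (difference -0.98, SE 0.14, limma adjusted p = 0.0189). Its call was lost without any 1 B41HET sample and without B41KO sample 2. The other 27 were not called. With the filter on dim probes 3 genes of the list were called, with trended and robust variance 2, and with normexp background correction 0. The median of 0.04 was 0 without B41HET sample 3 and 0.11 without B41HET sample 1. The summed linear signal of the list ran from 8370 to 8890 in B41HET and from 8400 to 8590 in the samples labelled B41KO. By comparison, Ly6e and Ly6a differed by -0.79 and -0.56.

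Ly6 antigens mark other cell types, and the markers of those cells were followed beside them. Of 12 neutrophil markers, all above background on all arrays, 8 were called lower, the most by size being Ltf at -3.17, Ngp at -3.13 and Mmp9 at -3.00, all of them granule proteins. The median was -2.01, and the summed linear signal was 30900 to 34700 in B41HET and 6230 to 6590 in the samples labelled B41KO, without overlap. The count was 8 in each fit without 1 sample. Mmp8 (-0.61), Cxcr2 (-0.09), Elane (-0.04) and Mpo (0.39) were not called. The sort took CD45lo Cx3cr1+ CD11b+ cells, and how many neutrophils remained among them was not measured here. The part of neutrophil RNA in the signals of Ly6c1, Ly6c2, Ly6a and Ly6e was not tested.

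Of 9 monocyte markers 4 were called lower, with Plac8, Chil3 (-2.26) and F13a1 the most by fitted size. Plac8 stood well above background in 2 of the 3 samples labelled B41KO and F13a1 in 1 of 3, so the sizes of their fitted differences are uncertain. The list's median was -0.35, and it was -0.22 without B41HET sample 2 and -0.13 with normexp background correction. Ccr2, the chemokine receptor of Ly6C-high monocytes, differed by -0.30 (limma adjusted p = 0.394). The summed signal of 80600 to 86900 in B41HET and 77800 to 93600 in the samples labelled B41KO was 98.8% to 99.7% from Ms4a4c, which was not called. The other 8 summed to 990 to 1020 and 325 to 373. The count of called monocyte markers fell to 1 without any 1 B41HET sample or without B41KO sample 2, and was 2 without B41KO sample 1 and with slide row as a block. The part of monocyte RNA in the Ly6c2 signal was not tested.

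Of 17 endothelial markers 1 was called, Pecam1 (CD31), which myeloid cells also express, at 8.48, 8.34 and 8.27 in B41HET against 6.58, 6.86 and 6.61 (difference -1.68, SE 0.11, limma adjusted p = 0.00301). Cdh5, Emcn, Flt1, Itm2a, Ptprb, Tek and Tie1, which mark endothelium, did not stand well above background in any sample. Cldn5, the claudin of the blood-brain barrier, differed by -0.13, and the median of the list was 0.04. That median was -0.01 without B41HET sample 1, -0.05 with slide row as a block and 0.20 after a shift to the 75th percentile, and has no settled sign. The list's summed signal was 4670 to 5020 in B41HET and 4460 to 4800 in the samples labelled B41KO, and 79.5% to 83.4% of it came from Eng, which was not called. The other endothelial markers, Pecam1 among them, summed to 960 to 984 and 775 to 804.

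Border macrophages live in the meninges and perivascular spaces and share much of the microglial surface phenotype. Of 9 of their markers 4 were called lower, led by Cbr2 at -1.44, Ms4a7 at -1.10 and Cd163 at -1.02, and the median was -1.02. All 9 were below 0, and 8 were lower without overlap, as 18% of named genes were. Lyve1 (-1.80) and Mrc1 (-1.26) were not called. Neither stood well above background in any sample labelled B41KO, so the sizes of their fitted differences are uncertain. With the filter on dim probes 6 were called. With normexp background correction 2 were called and the median was -0.29, and with slide row as a block the median was -0.74. The summed signal was 2500 to 2680 in B41HET and 1720 to 1900 in the samples labelled B41KO, of which Stab1 gave 82% to 86.1%, and the others summed to 441 to 461 and 259 to 270. The count fell to 2 without B41HET sample 2 or B41KO sample 2. Their part in the Ly6 differences was not tested.

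Dendritic cell markers were called in both directions, with Clec10a at -1.92 and Cd209a at -1.74 lower and Cox6a2 at 0.76 higher among 10. The count was 2 in 4 of the 6 fits without 1 sample and 1 with slide row as a block. The list's median of -0.08 was -0.28 without B41HET sample 2 and 0.06 without B41KO sample 2, and has no settled sign. Its summed signal was 828 to 850 against 921 to 942, and without Cox6a2 521 to 547 against 402 to 436. The B cell list, which bears on Ly6d, had 1 of 12 called, Cd79a at -0.99, with Fcmr, Ms4a1 and Rag1 not above background, a median of -0.10 and a summed signal of 1420 to 1610 against 1510 to 1530, or 704 to 787 against 695 to 747 without Cd79b. The T and NK cell list had 1 of 13 called, Il7r at -0.84, with Cd3g not above background. Its median of 0.09 ran from 0.05 to 0.16 over other ways of processing and fits without 1 sample. Its summed signal was 1860 to 1920 against 2000 to 2120, or 879 to 970 against 841 to 862 without Cd4. The call of Il7r was lost without B41HET sample 1 and without any 1 sample labelled B41KO.

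Mural cell markers had 1 of 9 called, Vtn at -1.47, with Pdgfrb and Rgs5 not above background, a median of -0.02 and a summed signal of 22700 to 24600 against 19700 to 22400, of which Acta2, not called, gave 93.7% to 95.2%. The others summed to 1160 to 1270 against 1070 to 1330, with overlap, and the median was 0.08 without B41KO sample 1 and -0.17 with slide row as a block. The call of Vtn held only when B41KO sample 1 was the one left out. None of 10 neuron markers was called by limma, and 2 had an unadjusted p below 0.05. After a shift to the 75th percentile, and also without B41KO sample 1, 1 was called. Gad1, Gad2, Nefl, Slc17a7, Stmn2 and Syt1 were not above background, and the neuron list, which bears on Ly6h, had a median of 0.06, which was -0.03 without B41HET sample 1 and 0.22 without B41HET sample 3 and has no settled sign. Its summed signal of 20300 to 22400 against 21000 to 21800 was 98.1% to 98.3% from Snap25, and the others summed to 343 to 394 against 382 to 390. The microglia markers, by contrast, were all above background, with Fcrls alone called among 13 (-0.76), a median of -0.05 and a summed signal of 187000 to 202000 against 184000 to 192000. With slide row as a block the calls of Fcrls, Cd79a, Il7r, Vtn, Ifitm3 and Pigf were lost.

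**Figure D4:**
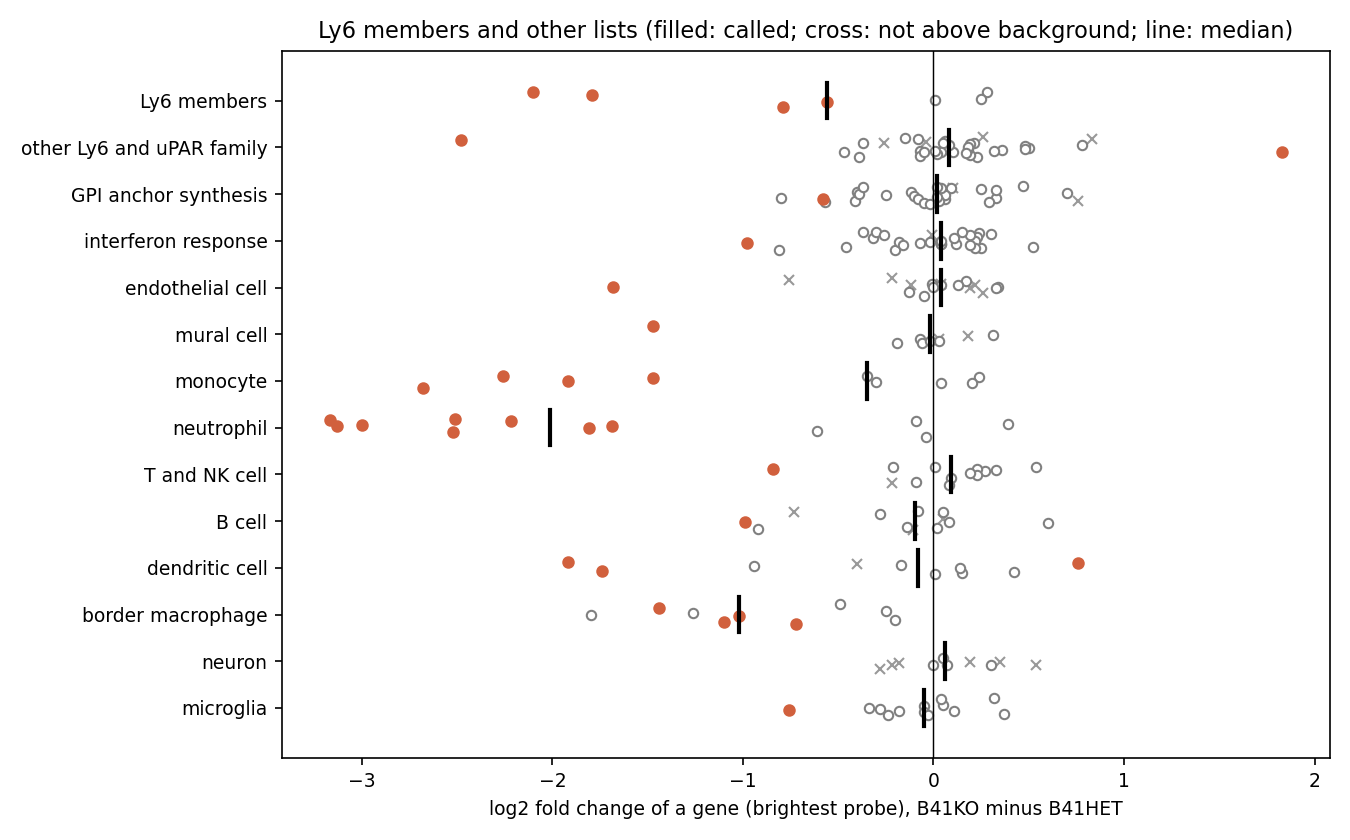
Each row is a gene list, the horizontal axis is the log2 difference between samples labelled B41KO and B41HET for the brightest probe of each gene, filled points are called genes, open points are not called, crosses are genes not above background on any array and a black line marks the median over all genes of the list. Ly6c1 and Ly6c2 lie at values that Ly6g and called neutrophil and monocyte markers also reach, and a called dendritic cell marker reaches that of Ly6c1. Ly6e and Ly6a lie nearer 0, and the endothelial, interferon and microglia lists have medians near 0.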

How the data were processed

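Microglia of 3 B41HET and 3 B41KO samples were hybridised to Agilent mouse arrays, from 100 ng of RNA. For every array the authors deposited the scanner table of Feature Extraction 11.5.1.1. Its processed signal is an intensity, background-subtracted within the array and not normalized between arrays. The authors also deposited a table of log2 values, which ranked probes as the scanner signal did (Spearman 1 for each array).

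Control spots and outlier spots (95 to 136 per array) were removed, intensities were log2 transformed and quantile normalized, and spots of a probe were averaged with R 4.3.3. Genotypes were compared with limma 3.58.1 (lmFit, eBayes) over 56601 probes with Benjamini-Hochberg adjustment, following the Methods. The number of arrays limits the precision, and intensities give no depth. Probes were named by transcript accession through a RefSeq table (GRCm38.p6), which named 33767 of 56605 probes (59.7%). The fit was tested on simulated data. Alternatives were a 75th percentile shift, the deposited log2 table, normexp (offset 50), a filter on dim probes, outlier spots kept, another variance model, other fold thresholds, another rule for the probe of a gene, replicate number or slide row as a block, and each sample left out in turn.

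The members and the lists (other Ly6 and urokinase receptor family, GPI anchor, interferon response and cell type markers) were chosen with earlier results of these data known. Named genes were all members, Bhlhe41, and the called genes with the largest differences in each list (at most 6 for the family, 3 elsewhere), and the 3 nearest genes of each called member, of which 1 is not reported here. Uncalled markers and uncalled relatives of the members were named after their values were seen.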

Additional observations from a re-analysis of the deposited data

How the results depend on the processing

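The 4 members called lower were lower in every alternative tried. Over the alternatives and the fits without 1 sample, the log2 difference ran from -2.15 to -1.75 for Ly6c2, from -1.87 to -1.63 and from -2.15 to -1.82 for the Ly6c1 probes, from -0.83 to -0.73 for Ly6e and from -0.63 to -0.47 for Ly6a. Ly6h ran from -0.21 to 0.12 and Ly6i from -0.14 to 0.49, so their sign depends on the processing. Leaving out 1 sample gave 2 to 4 called members, 2 to 3 called relatives and 792 to 1525 called probes. With slide row as a block, which sets B41KO sample 1 against the B41HET samples, 2 members and 444 probes were called. Normexp background correction on the median signals gave 1500 called probes in place of 2867, and 3 members, Ly6a falling under the size threshold. Called relatives numbered 2 as reported, 4 after a shift to the 75th percentile, 5 on the authors' values, 4 without a size threshold and 4 when all probes of a gene were averaged. Of called probes, 66% were lower as reported and 54.2% after the 75th percentile shift (1534 lower and 1297 higher), which moved the median of all probes to 0.126. Deviations of same-numbered samples correlated at 0.0276, 0.0136 and 0.0478, and those of differently numbered samples at -0.0506 to 0.0281. All are near 0, so they cannot decide whether the replicate numbers pair the samples. The fit with replicate number as a block called 0 members, 1 relative (Ly6g) and 42 probes, 40 of them lower (95.2%). The causes of these differences were not tested. Alternatives other than leaving out a sample gave 1 to 6 called monocyte markers, 0 to 6 border macrophage markers and 5 to 9 neutrophil markers (and 0 to 3 in both the interferon and the GPI anchor list), with list medians from -0.46 to -0.13, -1.05 to -0.29 and -2.04 to -1.96. Probes near background, such as the dim Ly6h probe, carry no usable difference.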
